A study of Mus musculus with 9 samples.

Results

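The tissue inhibitors of metalloproteinases (Timp1, Timp2, Timp3 and Timp4), 3 matrix metalloproteinases made by tissue cells (Mmp2, Mmp3 and Mmp14) and 3 ADAMTS proteases (Adamts1, Adamts4 and Adamts9) were followed in mouse lungs after ventilator-induced lung injury (VILI). The genes were picked by name, and all 10 were found among the 27203 gene IDs of the expression table, in 19 of its 60108 transcript rows. Each gene was taken by its Ensembl ID as named in GENCODE M21 (GRCm38), and the FPKM (fragments scaled by transcript length and by library depth) of its rows were added. Total RNA came from whole lungs of 9 male C57BL/6 mice aged 6 to 8 weeks. In 3 mice labelled VILI 0 hours and another 3 labelled VILI 6 hours, 4 hours of mechanical ventilation at a tidal volume of 20 ml/kg had ended 0 or 6 hours before the lungs were taken. The 3 control mice were intubated and received no ventilation. Mice were anaesthetised with ketamine and xylazine, pancuronium was given for muscle relaxation, and whether controls received it is not stated in the sources used here. Each library is the lung of 1 mouse.

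TIMPs are small secreted proteins that block the zinc-containing active site of metalloproteinases, so the matrix around a cell depends on both sides of this balance. Timp3 is bound to the matrix and also restrains ADAM and ADAMTS enzymes, Timp2 takes part with the membrane-anchored Mmp14 in activating pro-Mmp2, and Timp1 is the family member best known as inducible by cytokines. ADAMTS proteases cut large proteoglycans such as versican and aggrecan. In the lung these enzymes act on basement membranes, elastic tissue and the provisional matrix of injury.

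The promoters of Timp1 and Mmp3 are shown because both genes rose after ventilation, and because the Mmp3 window holds an AP-1 motif, a letter pattern read by Fos and Jun proteins. Both are the 250 bases before the RefSeq transcript start in GRCm38, on the plus strand, at chrX:20869916-20870165 for Timp1 and chr9:7445572-7445821 for Mmp3. Capitals mark the AP-1 motif.
Timp1: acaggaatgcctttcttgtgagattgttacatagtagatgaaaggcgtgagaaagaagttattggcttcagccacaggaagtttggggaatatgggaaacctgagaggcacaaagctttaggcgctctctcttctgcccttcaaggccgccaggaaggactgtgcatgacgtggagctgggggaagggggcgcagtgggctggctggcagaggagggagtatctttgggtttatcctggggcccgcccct
Mmp3: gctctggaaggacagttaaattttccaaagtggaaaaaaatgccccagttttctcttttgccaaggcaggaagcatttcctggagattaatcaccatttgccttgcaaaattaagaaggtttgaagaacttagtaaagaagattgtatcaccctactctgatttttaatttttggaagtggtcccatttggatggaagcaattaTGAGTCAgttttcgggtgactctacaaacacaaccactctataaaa
The motif of Mmp3, TGAGTCA, lies at bases 46 to 40 before the start. RefSeq windows were found for 8 of the 10 genes, Mmp2 and Adamts4 being those with none, and Mmp3 was the 1 window of the 8 with an AP-1 motif (TGAGTCA or TGACTCA, which are each other on the opposite strand). Of 32851 windows of this length, 4.46% held it. A STAT motif (TTCNNNGAA, the same on both strands) was in 7.02% of all windows and an NF-kB motif, searched on both strands, in 3.9%, and neither was in any of the 8. The Mmp3 window was also the poorest in G and C of the 8, at 37.6% against 54.4% for Timp1 and a range of 53.6% to 71.2% among the 7 other than Mmp3. These are letter matches and say nothing of binding.

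FPKM summed to between 366360 and 388459 per library, and Spearman correlations over transcript rows within a group were 0.915 to 0.918 in control, 0.907 to 0.917 at VILI 0 hours and 0.882 to 0.900 at VILI 6 hours. VILI 6 hours replicate 1 stood apart from replicates 2 and 3. Its summed mesothelial markers (Msln, Upk3b, Wt1 and Lrrn4) were 88.3 FPKM against 30.8 to 44.9 FPKM in the other 8 libraries. Wt1 alone did not set it apart, at 1.75, 1.78 and 1.65 FPKM in VILI 6 hours replicates 1, 2 and 3. Its summed neutrophil markers were the lowest of the 6 ventilated lungs at 474 FPKM, although Csf3r among them was higher in it (36.8 FPKM) than in replicates 2 and 3. For the genes picked by name at the outset, results whose call differs without it are also given without it. Calls in the other gene families and in the marker lists are given with all libraries only. Whether those calls depend on this library was not tested. The labelled tissue showed its own markers in each group, with 5 alveolar type 2 markers summing to 11893 to 14879 FPKM. Neutrophil markers (8 genes) summed to 50.3 to 62.2 FPKM in control, 556 to 980 FPKM at VILI 0 hours and 474 to 2030 FPKM at VILI 6 hours, and none of these 8 was at 0 in all libraries. In whole tissue, fewer cells of a type and less RNA per cell cannot be told apart.

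In control lungs the 10 genes spanned 0.162 to 253 FPKM, a unit that allows levels of different genes to be set side by side. Timp3 was the highest at 253 ± 14.0 FPKM (mean ± SD, n = 3), which placed it 118th among 19378 genes, followed by Timp2 at 128 ± 5.29 FPKM. A middle group held Mmp2 (42.7 ± 7.64), Adamts1 (32.2 ± 2.21), Mmp14 (24.3 ± 3.99), Adamts9 (16.0 ± 2.50) and Mmp3 (8.78 ± 0.805 FPKM). Timp1 (2.56 ± 0.813 FPKM), Timp4 (0.558 ± 0.106) and Adamts4 (0.162 ± 0.0280) were the lowest, Adamts4 at rank 17985. Of neighbours in this order, Mmp2 and Adamts1 overlapped between libraries and the others did not. At VILI 6 hours Timp1 had moved up to 17.3 ± 11.6 FPKM and Adamts4 to 6.40 ± 7.79 FPKM. There Timp3 and Timp2 were still the highest without overlap, and overlap joined Adamts1 with Mmp2, Mmp2 with Mmp14, Adamts9 with Timp1, Timp1 with Mmp3, Mmp3 with Adamts4, and Adamts4 with Timp4.

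**Figure D1:**
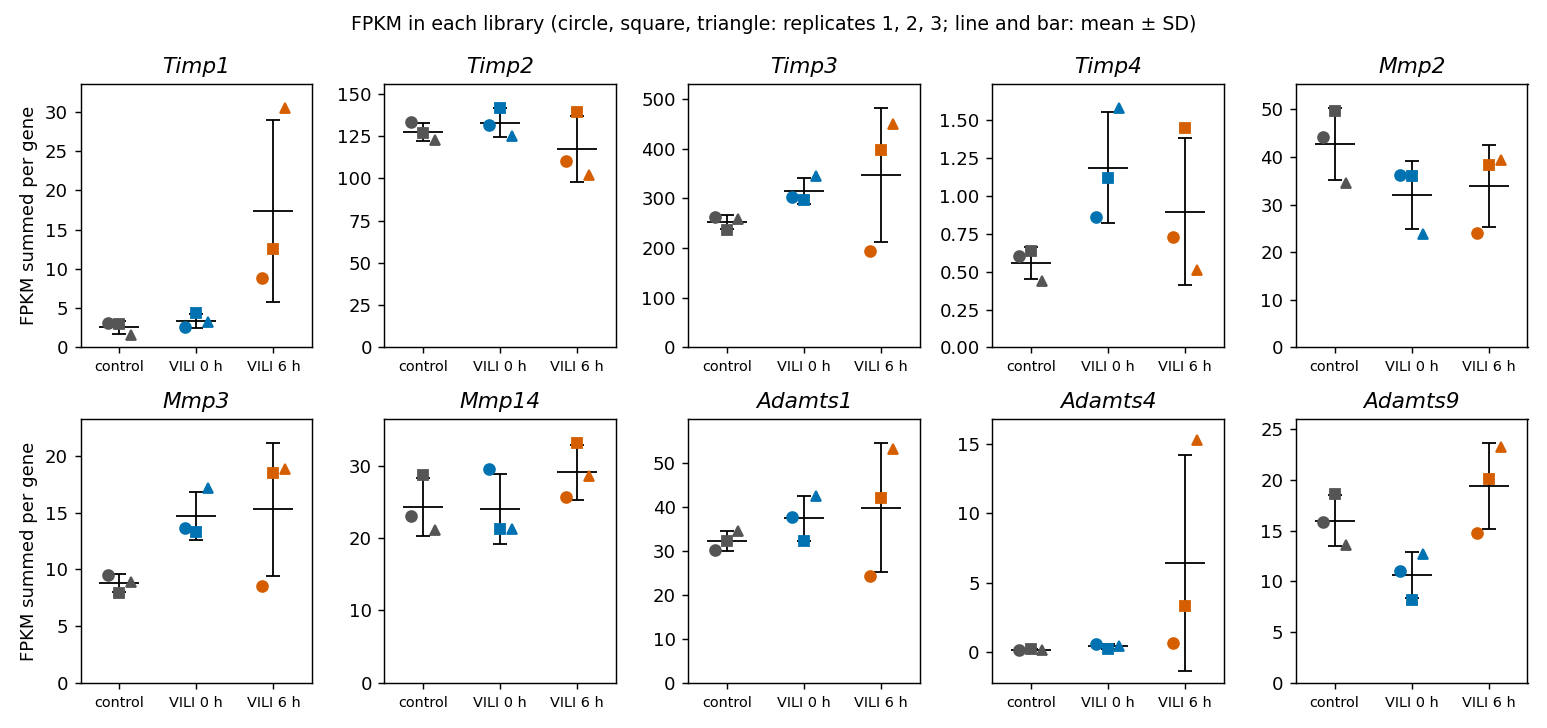
FPKM of each of the 10 genes (vertical axis, linear, own scale per panel) in the 3 controls, 3 VILI 0 hours and 3 VILI 6 hours libraries (horizontal axis), with a circle, square or triangle for replicate 1, 2 or 3 and a line with bars for mean ± SD. Timp1 sits between 1.62 and 4.37 FPKM in control and VILI 0 hours lungs and between 8.90 and 30.5 FPKM at VILI 6 hours, and the bar of Adamts4 at VILI 6 hours passes below 0 because 1 library reached 15.3 FPKM.

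Changes were tested with limma on log2(FPKM + 0.1) over 19378 genes with a mean of at least 0.1 FPKM, and a gene is said to pass, to rise or to fall where its unadjusted P was below 0.05, which is the cut-off the study used. Adjusted p-values are Benjamini-Hochberg values over all genes tested. For VILI 0 hours vs control, 2 of the 10 genes rose, beside 6.81% of all genes, and 1 fell, beside 9.35%. None had an adjusted p under 0.05 in limma, as 0.284% of all genes did. For VILI 6 hours vs control, 3 rose, beside 8.17% of all genes, and 0 fell, beside 12.2%, with 1 passing after adjustment, beside 0.702%. For VILI 6 hours vs VILI 0 hours, 3 rose, beside 5.06% of all genes, and 0 fell, beside 4.94%, and 0 of the 19378 genes passed after adjustment in limma, although 1938 passed before it. The median log2 fold change of the 10 genes was 0.26, 0.32 and 0.06 in these comparisons, and that of all genes −0.07, −0.09 and −0.02. Both comparisons with control use the same 3 control libraries. Centring each library on its median moved the median of all genes to 0.05 and 0.04 against control and the share of calls that were higher from 42.1% to 61.2% at VILI 0 hours and from 40.1% to 58.1% at VILI 6 hours. Relative to that centre the same genes of the 10 rose, Timp4 by 1.05 and Mmp3 by 0.85 at VILI 0 hours and Timp1 by 2.69, Adamts4 by 3.83 and Mmp3 by 0.84 at VILI 6 hours, and 0 of the 10 fell.

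Timp1 (chrX:20870166-20874735, GRCm38 as for all positions), the inducible inhibitor, was upregulated at VILI 6 hours and had the smallest P of the 10 genes there. It was 3.08, 2.97 and 1.62 FPKM in the controls, 2.62, 4.37 and 3.21 FPKM at VILI 0 hours and 8.90, 12.5 and 30.5 FPKM at VILI 6 hours. All 3 lungs at VILI 6 hours were above all 6 of the others, while control and VILI 0 hours lungs overlapped. The mean was 6.77 times that of control, and the log2 fold change was 2.56 (SE 0.43, 95% confidence interval 1.60 to 3.53, limma adjusted p = 0.0353). Against VILI 0 hours the log2 fold change was 2.14 (SE 0.43, limma adjusted p = 0.173), and VILI 0 hours vs control gave 0.42 (adjusted p = 0.669). Groups of 3 against 3 cannot give an exact two-sided permutation p under 0.1, and Timp1 had 0.1 in both comparisons that it passed. Without VILI 6 hours replicate 3, its highest library, the log2 fold change against control was 2.06 with a limma adjusted p of 0.0541. Over 18 other settings the adjusted p ran from 0.00245 to 0.162, with 6 under 0.05. The change between the times was 2.52 without replicate 1 and then passed after adjustment (limma adjusted p = 0.0244, in a range up to 0.577). Both transcript rows of Timp1 rose at VILI 6 hours, by 2.66 and 2.57 on the log2 scale (limma adjusted p = 0.311 and 0.151, over 37300 rows).

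Timp3 (chr10:86300372-86349506), the matrix-bound inhibitor, was the most abundant TIMP in every library. Its levels were 263, 237 and 259 FPKM in the controls, 304, 297 and 345 FPKM at VILI 0 hours and 195, 398 and 451 FPKM at VILI 6 hours. All VILI 0 hours lungs lay above all controls, but VILI 6 hours replicate 1 was the lowest of the 9 libraries and replicates 2 and 3 the highest. No comparison passed with all libraries, with log2 fold changes of 0.32 (interval −0.27 to 0.91, adjusted p = 0.592) at VILI 0 hours and 0.37 (adjusted p = 0.435) at VILI 6 hours. Without VILI 6 hours replicate 1, Timp3 rose by 0.74 at VILI 6 hours vs control (limma adjusted p = 0.00268, from a range of 0.00268 to 0.834 over the 18 alternatives). That fit also called its 0.32 at VILI 0 hours a rise (limma adjusted p = 0.0813, range 0.0616 to 0.801), a comparison that the library enters only through the spread shared by the 3 groups, and a fit of the 6 libraries of that comparison alone called it too.

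Timp2 (chr11:118301069-118355740), an inhibitor and a partner of Mmp14, varied little. It lay between 123 and 133 FPKM in control, 125 and 142 FPKM at VILI 0 hours, and was 110.0, 139 and 102 FPKM at VILI 6 hours. The 3 groups overlapped, with a log2 fold change of 0.06 (interval −0.21 to 0.33) at VILI 0 hours and −0.14 (adjusted p = 0.534) at VILI 6 hours. Leaving out VILI 6 hours replicate 2 ended the overlap of VILI 6 hours with both other groups, which still overlapped with each other. Timp2 then fell by 0.32 between the times and by 0.27 vs control (limma adjusted p = 0.284, the lowest of a range up to 0.978 over the alternatives).

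Timp4 (chr6:115241892-115252205), known from heart and adipose tissue, was low. It was 0.60, 0.63 and 0.44 FPKM in the controls, 0.86, 1.11 and 1.58 FPKM at VILI 0 hours and 0.73, 1.44 and 0.51 FPKM at VILI 6 hours. The VILI 0 hours lungs were all above the controls, and the VILI 6 hours lungs overlapped both. Timp4 rose at VILI 0 hours with a log2 fold change of 0.94 (SE 0.37, limma adjusted p = 0.253) and had 0.50 (adjusted p = 0.448) at VILI 6 hours. The library with the highest Timp4, VILI 0 hours replicate 3, also had the highest cardiac muscle markers (8 genes summing to 371 FPKM against 166 to 200 FPKM in the other 8 libraries), and without it Timp4 no longer passed, at 0.73 (adjusted p = 0.531, the highest of a range from 0.0707). The call was also lost without control replicate 1, control replicate 3 or VILI 0 hours replicate 2, and without VILI 6 hours replicate 2 Timp4 fell by 0.81 between the times. Adipocyte markers (5 genes) summed to 50.6 to 79.3 FPKM in control and 79.6 to 92.0 FPKM at VILI 0 hours. The part of these tissues in the Timp4 values was not tested. Timp4 lies within Syn2 on the opposite strand, which was 3.06 to 4.07 FPKM in control and 1.16 to 2.23 FPKM at VILI 0 hours, and whether the authors' estimate used strand is not given in the sources used here.

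The TIMP balance is seen best as shares of summed TIMP FPKM. The 4 genes together were 367 to 400 FPKM in control, 439 to 475 FPKM at VILI 0 hours, and 314, 551 and 584 FPKM at VILI 6 hours. Timp1 made up 0.422% to 0.809% of this sum in control, 0.597% to 0.984% at VILI 0 hours, and 2.83%, 2.27% and 5.23% at VILI 6 hours. Timp3 gave 61.9% to 77.2% and Timp2 17.5% to 35.0% at VILI 6 hours. Thus, despite its rise, Timp1 stayed a small part of TIMP mRNA in all 9 lungs, and Timp3 the main part.

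**Figure D2:**
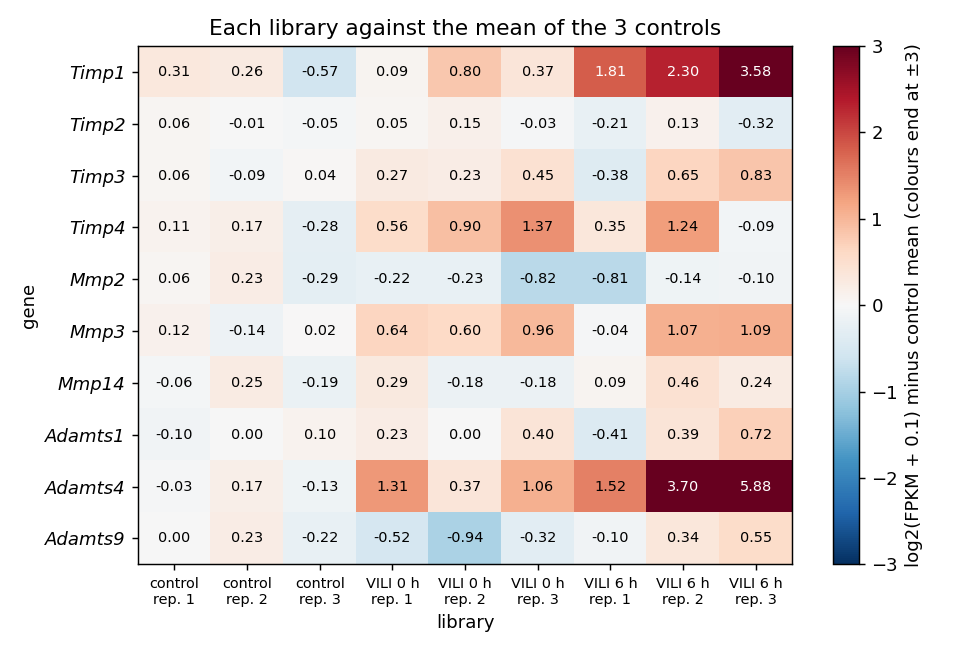
Log2(FPKM + 0.1) of each gene (rows) in each library (columns) minus the mean of the 3 controls, with the value printed in each cell, red above and blue below the control mean, and colours ending at ±3. Timp1 and Adamts4 are above the control mean in all 3 VILI 6 hours libraries (1.81 to 3.58 and 1.52 to 5.88), while Timp3, Mmp3, Adamts1 and Adamts9 are below it in VILI 6 hours replicate 1 and above it in replicates 2 and 3.

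Among the metalloproteinases, Mmp3 (stromelysin 1, chr9:7445822-7455975), a broad matrix enzyme that can also activate other pro-MMPs, rose at both times. It was 9.52, 7.92 and 8.89 FPKM in the controls, 13.7, 13.3 and 17.1 FPKM at VILI 0 hours and 8.51, 18.5 and 18.8 FPKM at VILI 6 hours. The VILI 0 hours lungs were all above the controls, whereas VILI 6 hours replicate 1 lay within the control range. The log2 fold change was 0.73 (SE 0.27, limma adjusted p = 0.236) at VILI 0 hours and 0.71 (SE 0.27, limma adjusted p = 0.197) at VILI 6 hours. Without VILI 6 hours replicate 1 the later value was 1.08 (limma adjusted p = 0.00163, the lowest of its range), and without VILI 6 hours replicate 2 or 3 it no longer passed, at 0.53 or 0.52 (adjusted p = 0.429 and 0.446, the latter the highest). The early value did not pass without VILI 0 hours replicate 3, at 0.62 (adjusted p = 0.496, in a range of 0.0116 to 0.527), and both calls were also lost without control replicate 2 or control replicate 3, the later one also in a fit of its 6 libraries alone.

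Mmp2 (gelatinase A, chr8:92827291-92853420), which cuts basement membrane collagen, was 44.1, 49.6 and 34.5 FPKM in the controls, 36.3, 35.9 and 23.9 FPKM at VILI 0 hours and 24.1, 38.4 and 39.3 FPKM at VILI 6 hours. The groups overlapped. Its log2 fold change was −0.42 (interval −0.95 to 0.10, adjusted p = 0.411) at VILI 0 hours and −0.35 (adjusted p = 0.407) at VILI 6 hours, and it passed at VILI 0 hours only when VILI 6 hours replicate 1 was left out (adjusted p = 0.205, in a range up to 0.731). Fibroblast markers (8 genes) summed to 661 to 775 FPKM in control, 566 to 663 FPKM at VILI 0 hours and 537 to 719 FPKM at VILI 6 hours, but the list did not move 1 way. At VILI 0 hours Col3a1 and Col1a2, both fibrillar collagen genes, fell (log2 fold change −0.47 and −0.39), Dcn (decorin) rose (0.39), and 5 of the 8 did not pass, among them Pdgfra (0.02) and Pdgfrb (−0.04). The part of fibroblasts in Mmp2 was not tested.

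Mmp14 (chr14:54431612-54445364), the membrane-type enzyme that activates pro-Mmp2, was 21.1 to 28.7 FPKM in control, 21.3 to 29.6 FPKM at VILI 0 hours and 25.6 to 33.1 FPKM at VILI 6 hours. No comparison passed with all libraries, and the difference at VILI 0 hours, −0.02 with an interval of −0.40 to 0.36 on the log2 scale, changed sign with median-centred libraries. For VILI 6 hours vs control the log2 fold change was 0.26 (interval −0.12 to 0.64, adjusted p = 0.390). Without VILI 0 hours replicate 1, Mmp14 rose by 0.44 between the times (limma adjusted p = 0.448, in a range of 0.259 to 0.891).

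Adamts4 (chr1:171250421-171260637), an aggrecanase that also cuts versican, had the largest fold change of the 10 genes at VILI 6 hours vs control, except with 1 FPKM added before taking logs, where Timp1 led (2.21 against 2.07). It was 0.16, 0.19 and 0.14 FPKM in the controls, 0.55, 0.24 and 0.44 FPKM at VILI 0 hours and 0.65, 3.28 and 15.3 FPKM at VILI 6 hours. The groups did not overlap in any comparison, although the 3 lungs at VILI 6 hours themselves were far apart. Adamts4 rose at VILI 6 hours vs control with a log2 fold change of 3.70 (SE 0.87, limma adjusted p = 0.0823) and vs VILI 0 hours with 2.79 (SE 0.87, limma adjusted p = 0.348). At VILI 0 hours vs control the value was 0.91 (interval −1.03 to 2.86, adjusted p = 0.642), and it passed there in a fit of the 6 libraries compared alone (limma adjusted p = 0.140, in a range up to 0.871). Controls were close to the 0.1 FPKM added before taking logs, so the size depends on it: the change vs control was 4.24 with 0.01 and 2.07 with 1 added, 2.61 without VILI 6 hours replicate 3 and 4.79 without replicate 1. Without replicate 1 both rises passed after adjustment (limma adjusted p = 0.00131 vs control and 0.0221 vs VILI 0 hours, the lowest of ranges up to 0.274 and 0.759). Summed neutrophil markers were lowest and highest at VILI 6 hours in the same replicates as Adamts4 (1 and 3), with Timp1 in the same order. Within that list Csf3r was instead highest in replicate 1 (36.8 FPKM, against 24.7 and 27.9 FPKM), and Ltf was lowest in replicate 2 (14.3 FPKM). At VILI 0 hours the markers summed to 556 to 980 FPKM, Timp1 was at most 4.37 FPKM and Adamts4 at most 0.55 FPKM. The part of neutrophils in Timp1 and Adamts4 was not tested.

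Adamts9 (chr6:92772699-92943492), a versican-cutting protease, fell and then rose. It was 15.8, 18.6 and 13.6 FPKM in the controls, 11.1, 8.22 and 12.7 FPKM at VILI 0 hours and 14.8, 20.1 and 23.2 FPKM at VILI 6 hours. The VILI 0 hours lungs were below all 6 others, and control and VILI 6 hours lungs overlapped. The log2 fold change was −0.59 (SE 0.21, limma adjusted p = 0.211) at VILI 0 hours vs control, 0.86 (SE 0.21, limma adjusted p = 0.254) for VILI 6 hours vs VILI 0 hours, and 0.26 (adjusted p = 0.485) for VILI 6 hours vs control. The early fall did not pass with median-centred libraries, at −0.48 (adjusted p = 0.387, in a range of 0.0797 to 0.530), and was also lost without control replicate 2 or VILI 0 hours replicate 2, whereas the later rise passed in all 18 alternatives. The later rise was 1.04 without VILI 6 hours replicate 1 and then passed after adjustment (limma adjusted p = 0.0379, in a range up to 0.646), and Adamts9 also rose vs control by 0.44. Its 2 transcript rows both rose between the times, by 0.84 and 0.85, and at VILI 0 hours had −0.46 (adjusted p = 0.626) and −0.69 (adjusted p = 0.330). An antisense gene that overlaps its start, 9530026P05Rik, was 8.64 to 9.12 FPKM in control, 11.0 to 15.1 FPKM at VILI 0 hours and 6.15, 10.9 and 15.0 FPKM at VILI 6 hours.

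Adamts1 (chr16:85793827-85803113), another versican-cutting protease, was 30.1, 32.2 and 34.5 FPKM in the controls, 37.7, 32.2 and 42.4 FPKM at VILI 0 hours and 24.2, 42.1 and 53.2 FPKM at VILI 6 hours. The lowest and the highest of the 9 values were both at VILI 6 hours. No comparison passed with all libraries (log2 fold changes of 0.21 and 0.23 against control, adjusted p = 0.720 and 0.604), and without VILI 6 hours replicate 1 it rose by 0.55 at VILI 6 hours vs control (limma adjusted p = 0.0253, in a range up to 0.987).

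**Figure D3:**
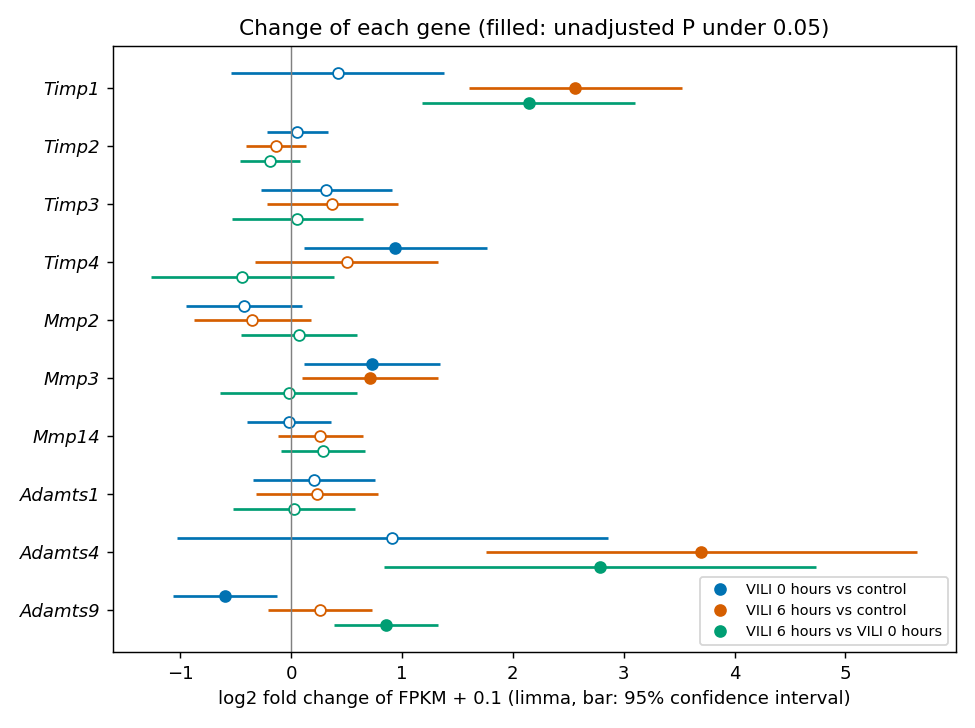
Log2 fold change of FPKM + 0.1 (horizontal axis) of each gene (vertical axis) in the 3 comparisons, with bars for the 95% confidence interval from limma and filled points for an unadjusted P under 0.05. Timp1 and Adamts4 are filled at VILI 6 hours against both other groups, Adamts9 is filled to the left at VILI 0 hours and to the right between the times, and Timp2, Timp3, Mmp2, Mmp14 and Adamts1 have no filled point.

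Counted by overlap, 4 of the 10 genes had all VILI 0 hours lungs above all controls (Timp3, Timp4, Mmp3 and Adamts4), beside 12.0% of all genes, and 1 had them below (Adamts9), beside 21.6%. For VILI 6 hours vs control 2 were above (Timp1 and Adamts4), beside 9.64%, and 0 below, beside 15.0%. Between the times 3 were above (Timp1, Adamts4 and Adamts9), beside 6.25%, and 0 below, beside 6.28%. Each of these had an exact permutation p of 0.1, the smallest that 3 against 3 allows.

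Without VILI 6 hours replicate 1, 6 of the 10 genes rose at VILI 6 hours vs control, beside 12.9% of all genes that rose in that fit, and 6 rose between the times, beside 8.55%. In both, Timp1, Timp3, Mmp3, Adamts1, Adamts4 and Adamts9 were the genes that passed. In each of these 6, replicate 1 was the lowest of the VILI 6 hours lungs, so leaving it out raised the fold change in both comparisons. That library was singled out from these same data, and the VILI 6 hours group was then smaller. Timp2, Timp4, Mmp2 and Mmp14 did not pass in either, and Mmp2 had −0.12 vs control in that fit.

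The wider families were described by counts, to be read beside the shares of all genes. Of all genes, 6.81% rose and 9.35% fell at VILI 0 hours vs control, and 8.17% rose and 12.2% fell at VILI 6 hours vs control. Between the times 5.06% rose and 4.94% fell. Of 13 other MMP genes tested, 2 rose and 1 fell at VILI 0 hours, 4 rose at VILI 6 hours, and 2 fell between the times, with a median log2 fold change of 0.13, −0.08 and 0.11. The enzymes stored in neutrophils led: Mmp9 (gelatinase B) was 2.06 to 2.73 FPKM in control, 9.98 to 18.5 FPKM at VILI 0 hours and 13.8 to 24.9 FPKM at VILI 6 hours (log2 fold change 2.56 and 2.89, limma adjusted p = 0.0204 and 0.00959), and Mmp8 (neutrophil collagenase) rose by 4.48 and 4.55 (limma adjusted p = 0.0514 and 0.0311). Mmp25 rose by 1.83 at VILI 6 hours, and Mmp28 fell by 0.49 between the times. At VILI 0 hours the level of Mmp9 was about that of Mmp3 (13.3 to 17.1 FPKM), and in control it was below it in every lung. Neutrophil markers rose in 7 of 8 genes at VILI 0 hours and 8 of 8 at VILI 6 hours, and their part in Mmp8 and Mmp9 was not tested.

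Of 13 other ADAMTS genes, 1 rose and 3 fell at each time vs control, with medians of −0.06 and −0.15. Of all genes, 6.81% and 8.17% rose and 9.35% and 12.2% fell at these times. Adamts15 rose from 11.0 to 15.4 FPKM in control to 22.3 to 47.3 FPKM at VILI 0 hours (log2 fold change 1.47) and had 1.32 at VILI 6 hours, while Adamts10 fell by 0.97 and 0.89, Adamts8 by 0.59 at VILI 0 hours, and Adamts6 by 1.06 at VILI 6 hours (limma adjusted p = 0.0348). Among 6 ADAMTS-like genes (medians 0.04 and −0.05), which lack the protease domain, Adamtsl4 rose (0.43 and 0.59) and Adamtsl5 (−0.55 and −0.63) and Adamtsl3 (−0.47 and −0.45) fell at both times. Of 9 ADAM genes, 1 rose and 1 fell at VILI 0 hours and 3 rose and 1 fell at VILI 6 hours, with Adam8 at 1.46 and 1.38 and Adam15 at 0.74 and Adam9 at 0.43 at VILI 6 hours.

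**Figure D4:**
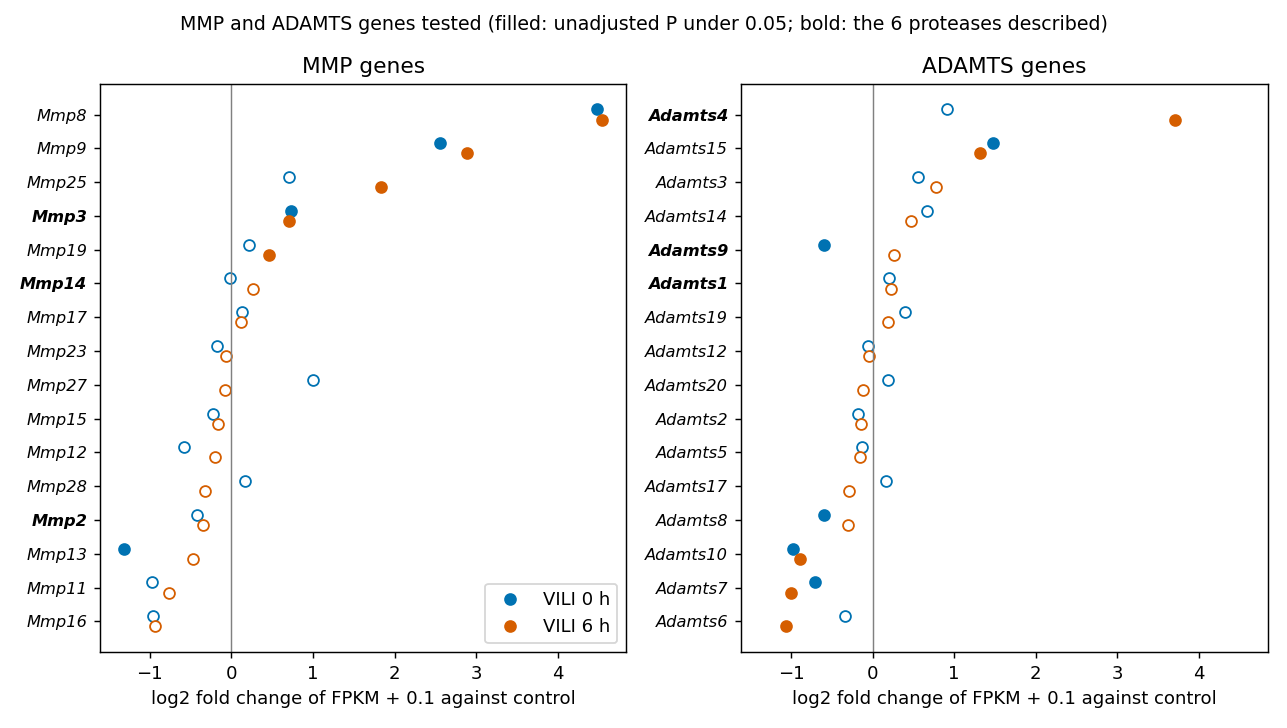
Log2 fold change of FPKM + 0.1 against control (horizontal axis) at VILI 0 hours (blue) and VILI 6 hours (orange) of the 16 MMP genes and 16 ADAMTS genes tested, ordered by the VILI 6 hours value, with filled points for an unadjusted P under 0.05 and bold names for the 6 proteases described above. Mmp8 and Mmp9 lie to the right of Mmp3, and Adamts4 lies to the right of every other ADAMTS gene at VILI 6 hours.

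Other inhibitors and substrates moved in both directions, and the genes of protease activation and clearance that passed all rose. The shares of all genes beside these counts were 6.81% up and 9.35% down at VILI 0 hours, and 8.17% up and 12.2% down at VILI 6 hours. Of 7 inhibitors other than TIMPs (medians −0.09 and −0.19), 1 fell at VILI 0 hours and 1 rose and 1 fell at VILI 6 hours. Slpi, which blocks neutrophil elastase, rose by 0.93 and Reck, a membrane-anchored MMP inhibitor, fell by 0.32 at VILI 6 hours, and Cst3 fell by 0.39 between the times. Of 9 genes of protease activation and clearance, 2 rose at VILI 0 hours and 5 at VILI 6 hours (medians 0.05 and 0.28), among them Furin, which activates Mmp14 (0.53 and 0.72), Plaur, the urokinase receptor (1.18 and 1.17), and Lrp1, which clears TIMPs and MMPs (0.37 at VILI 6 hours). Of 13 substrates tested, 1 rose and 1 fell at VILI 0 hours and 1 rose and 3 fell at VILI 6 hours (medians −0.18 and −0.11). Vcan (versican), a substrate of Adamts1, Adamts4 and Adamts9, was 2.73 to 5.02 FPKM in control, 2.81 to 10.3 FPKM at VILI 0 hours and 11.3 to 13.4 FPKM at VILI 6 hours (log2 fold change 1.71, limma adjusted p = 0.0833). Lum (lumican) fell by 1.09 (limma adjusted p = 0.0389), Fbln2 by 0.61, and Dcn (decorin) rose by 0.39 at VILI 0 hours and fell by 0.55 between the times. Bcan fell by 0.80 at VILI 0 hours.

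As a description over the 9 libraries, with no test, the genes most like Timp1 among 14108 with a mean of at least 1 FPKM were Saa3 (Pearson r = 0.972), Arih1 (0.968), Csf2rb2 (0.966), Plekho2 (0.964) and Xbp1 (0.958). Saa3, an acute phase protein, was 0.922 to 2.83 FPKM in control and 16.5, 58.3 and 460.3 FPKM at VILI 6 hours, so replicates 1, 2 and 3 fell in the same order as for Timp1. The genes most like Timp3 were Becn1 (0.970), Nampt (0.966), XLOC_074604 (0.965), Col4a1 (0.963) and Nrtn (0.963). Col4a1, a basement membrane collagen, was 219 to 232 FPKM in control, 276 to 314 FPKM at VILI 0 hours and 180, 423 and 434 FPKM at VILI 6 hours, with replicate 1 the lowest of the 9, as for Timp3. These points share libraries, their scaling and the group differences.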

How the data were processed

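Lung RNA of 9 mice, 3 per group, was depleted of rRNA and sequenced. The library kit and sequencer in the sample labels differ from those of the study's methods, and the sources used here do not settle which applies. Per the study's methods and processing notes, the authors removed low-quality reads, aligned with TopHat2 2.0.9 and Bowtie2 2.0.6 to GRCm38, assembled transcripts with Scripture and Cufflinks, and deposited FPKM per transcript from Cuffdiff 2.1.1. The study lists reads per library, but the FPKM carry no read count per gene, so counting error was not estimated. Precision is taken from the spread between mice within groups, pooled over the groups in the fit. Rows carry gene IDs without transcript IDs, and 23580 of 23713 Ensembl IDs matched GENCODE M21.

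FPKM were summed per gene and tested with limma 3.58.1 (lmFit, eBayes with a trend) in R 4.3.3 on log2(FPKM + 0.1), in 1 fit of all 9 libraries with group as the factor, over genes with a mean of at least 0.1 FPKM. Such fold changes understate those of low genes. Calls used an unadjusted P under 0.05, with Benjamini-Hochberg values beside them. Groups of 3 were also compared by exact two-sided permutation. The 18 alternatives were pseudocounts of 0.01 and 1, a mean of at least 1 FPKM, genes kept without a filter, libraries centred on their medians, a fit of the 6 libraries compared alone, eBayes without a trend, a replicate block, the row with the highest mean FPKM, and each library left out. In data simulated for VILI 6 hours vs control over 19378 genes, 74% of genes changed by a log2 of 1 and 100% of those changed by 2 had a P under 0.05, as did 5.15% of unchanged genes. The simulated noise was normal, with 1 spread per gene shared by all groups and taken from the same fit. Spreads in the data could differ between groups (Timp3 SD 14.0 FPKM in control and 135 FPKM at VILI 6 hours), so these shares may not carry over.

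All 10 genes were named. Of each wider list, at most the 3 genes with the smallest P per comparison were named among those with a P under 0.05 and a mean of at least 1 FPKM, and for Timp1 and Timp3 the 5 genes with the highest Pearson r. Sequences and motifs came from RefSeq promoter windows. The genes and lists were chosen with earlier results of these data known. Tables were handled with pandas 2.3.3 and numpy 2.4.6 in Python 3.11.15, permutations with scipy 1.17.1 and plots with matplotlib 3.10.9.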

Additional observations from a re-analysis of the deposited data

Results flagged for a closer look

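Several of the genes differed between the times after ventilation, by the limma test of VILI 6 hours vs VILI 0 hours itself at an unadjusted P under 0.05, and none of them did so at an adjusted p under 0.05 with all 9 libraries. Without VILI 6 hours replicate 1, 362 genes did, among them Timp1, Adamts4 and Adamts9 (limma adjusted p = 0.0244, 0.0221 and 0.0379). Of the 10 genes, those that differed with all 9 libraries were Timp1 (log2 difference 2.14), Adamts4 (2.79) and Adamts9 (0.86). Of the wider lists, Vcan (1.29), Slpi (0.65), Adam15 (0.62), Adam9 (0.32) and Lrp1 (0.30) were higher at VILI 6 hours, and Lum (−0.90), Adamts6 (−0.72), Dcn (−0.55), Mmp28 (−0.49) and Cst3 (−0.39) were lower. Groups of 3 were too small for the test of single outlying lungs.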

How the results depend on the processing

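Of the 30 values of the 10 genes, 24 kept their sign in all alternatives that gave a value (18, and 17 for Timp4), and 5 of the 9 that passed did so in all 18 (Timp1 and Adamts4 at VILI 6 hours against both groups, and Adamts9 between the times). The number of genes passing, 3 in each comparison, was 5 at VILI 0 hours with only the 6 libraries compared, and the share of all genes passing in either direction moved with it, from 16.2% to 26.4%. With 1 library left out the number ran from 1 to 5, from 2 to 6 and from 3 to 6. At VILI 0 hours it was 1 without control replicate 2, control replicate 3, VILI 0 hours replicate 2 or VILI 0 hours replicate 3 (10.2% to 14.4% of all genes) and 5 without VILI 6 hours replicate 1 (23.2%). In both later comparisons 6 genes passed without VILI 6 hours replicate 1 (38.9% and 22.4% of all genes), and 5 passed from VILI 0 to 6 hours once VILI 6 hours replicate 2 was left out (9.82%). With replicate numbers as a block, it was 3 in each comparison and no call of the 10 genes changed. Deviations of same-numbered libraries correlated at −0.22 to 0.02, so the numbers were not taken as pairs. A minimum mean of 1 FPKM left no value for Timp4. Signs turned, among values that had not passed, for Mmp14 at VILI 0 hours (0.0937 with median-centred libraries, 0.0204 with the highest row, up to 0.11 from −0.18 with 1 library left out), Adamts1 at VILI 6 hours vs control (down to −0.0139 from 0.55), and between the times for Adamts1 (−0.22 to 0.35), Mmp2 (−0.12 to 0.30), Mmp3 (−0.22 to 0.35) and Timp3 (−0.18 to 0.43) with 1 library left out. The cause was not tested.

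Across all genes, calls after adjustment depended on the fit: at VILI 0 hours 55 genes passed an adjusted p under 0.05, against 1714 with only the 6 libraries compared and 1 without a filter, and at VILI 6 hours 136 did, against 4526 without VILI 6 hours replicate 1, 17 without VILI 6 hours replicate 3, 23 without VILI 6 hours replicate 2, and 1 without any 1 of the controls. FPKM without read counts give no counting error, so low genes such as Adamts4 and Timp4 rest on the spread between lungs, pooled over the groups in the fit. Overlapping genes on the opposite strand and rows without transcript IDs limit what a gene sum holds.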
